A study of Rattus norvegicus with 3 samples.

Results

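The phagocyte NADPH oxidase was examined through 6 of its subunit and regulator genes, Cybb, Cyba, Ncf1, Ncf4, Rac1 and Rac2, in a rat alveolar macrophage line exposed to carbon nanotubes. A gene was included when a probe of the deposited table carried its symbol in the platform annotation, older aliases accepted. All 6 genes were found, with 7 probes, among 15924 named genes and 20932 named probes.

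All cells were NR8383, an established line of rat alveolar macrophages, the phagocytes of the lung surface. One culture group received the single-wall carbon nanotube preparation CNT-2 and another the preparation CNT-1, both described as free of impurities, for 24 h at 0.1 mg/mL, with bovine serum albumin at 1 mg/mL as the carrier. The third group was the control for both; because its labels read untreated in one field and solvent control in another, it stays uncertain if those cells were given albumin. The sources used here do not say how CNT-2 differs from CNT-1. All 3 groups are of the same cell line, so the values say nothing of other macrophages or of whole lung.

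The table holds 1 column per group. The design text states n = 4 with no unit, and a column may be 1 array or a mean of several. No group therefore has a replicate, no test was made, and "higher" and "lower" describe these 3 columns only. Values are on a log scale presumed to be log2, centred per probe close to the control, so that a value shows a difference and not a level. The expression level of an oxidase gene, and whether the macrophage markers are expressed at all, cannot be read from such values. With bulk RNA of a cell line, fewer cells expressing a gene and less of its RNA per cell cannot be told apart.

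The phagocyte oxidase is the enzyme that makes superoxide when a phagocyte takes up particles or microbes. Its catalytic core sits in the membrane as a pair of proteins, gp91phox, encoded by Cybb, and p22phox, encoded by Cyba. On activation the cytosolic proteins p47phox (Ncf1) and p40phox (Ncf4), among others, move to the membrane together with a Rac GTPase, Rac2 or Rac1, and electrons then pass from NADPH to oxygen. Because assembly and phosphorylation control the enzyme, the amount of mRNA of its subunits is only one of the things that set its output.

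None of the 6 oxidase genes differed by 2-fold (1 log2 unit) between any pair of columns. In CNT-2 the GTPase Rac2 stood highest, at 1.73-fold of control, while the membrane and cytosolic subunits lay between 0.912-fold and 1.23-fold of control. In CNT-1 all 6 genes lay between 0.866-fold and 1.04-fold of control. Over all genes, 16.7% were at least 2-fold away from control in CNT-2 (10.1% higher and 6.56% lower) and 3.30% in CNT-1 (1.16% higher and 2.15% lower). With 6 genes, 0 past that mark is not far from either share, so the count by itself does not set the oxidase genes apart.

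The catalytic subunit gene Cybb was measured by 2 probes. They read 0.355 and 0.307 in CNT-2, -0.114 and -0.070 in CNT-1, and 0.018 and 0.041 in control. Both probes were thus highest in CNT-2 and lowest in CNT-1. Against control the difference was 0.30 ± 0.05 in CNT-2 and -0.12 ± 0.01 in CNT-1 (SD over 2 probes, a technical spread that does not measure how cultures vary). As deposited, CNT-2 exceeded CNT-1 by 0.42 ± 0.07, or by 0.04 to 0.30 under the 4 column scalings described below. These are small positions in the whole distribution, since 33.2% of all genes lay further above control in CNT-2.

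Cyba, the membrane partner that stabilises the catalytic subunit, had 1 probe, with -0.125 in CNT-2, -0.041 in CNT-1 and 0.008 in control. As deposited, it was the 1 member whose value in CNT-2 was lower than in CNT-1. Its differences from control were -0.13 in CNT-2 and -0.049 in CNT-1. Both are smaller than the median probe SD over genes with 2 or more probes, which was 0.19 in CNT-2 and 0.076 in CNT-1 against control. This SD serves below as a yardstick of the spread between probes of a gene, and it does not measure how arrays or cultures vary. To lie outside it is common, as the median absolute difference over all genes was 0.37 in CNT-2 and 0.18 in CNT-1.

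Of the cytosolic subunits, Ncf1, the organizer that carries the activating phosphorylation sites, read -0.015 in CNT-2, -0.137 in CNT-1 and 0.070 in control. Control was the highest of the 3 columns. The difference from control was -0.085 in CNT-2, inside the yardstick, and -0.21 in CNT-1, outside it and the lowest of the 6 members there. Still, 30.4% of all genes lay lower in CNT-1. Ncf4, whose product binds a phosphoinositide of the phagosome membrane, read 0.098 in CNT-2, -0.080 in CNT-1 and 0.035 in control. Its difference was 0.063 in CNT-2 and -0.12 in CNT-1, and only the second was outside the yardstick, with 39.4% of all genes lower.

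As deposited, the GTPase genes ranked above the subunit genes in CNT-2 and in CNT-1, relative to control, but the margins were narrow. Rac1 and Cybb in CNT-2, and Rac2 and Cyba in CNT-1, were closer to each other than the yardsticks of 0.19 and 0.076, and with quantile normalization Rac2 in CNT-1 lay below Cyba, at -0.071 against -0.022. Rac2, the Rac form of blood cells, read 0.852 in CNT-2, 0.070 in CNT-1 and 0.062 in control. CNT-2 was the only high column, and CNT-1 and control differed by 0.008. The difference of 0.79 for CNT-2 minus control was exceeded by 14.3% of all genes, and that of 0.78 for CNT-2 minus CNT-1 by 13.9%. Rac1, the widely expressed form, read 0.370 in CNT-2, 0.068 in CNT-1 and 0.007 in control. Its difference was 0.36 in CNT-2, with 29.9% of all genes higher, and 0.061 in CNT-1.

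**Figure D1:**
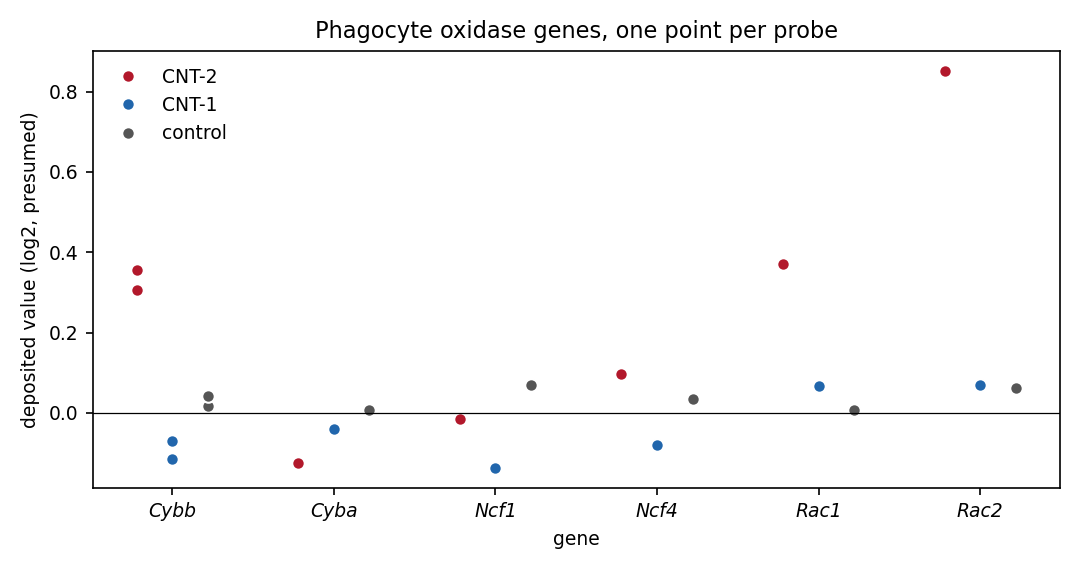
Deposited values (log2, presumed, centred per probe) of the 6 oxidase genes in the CNT-2, CNT-1 and control columns, with 1 point per probe and no error bars because each group has 1 column. Rac2 in CNT-2, at 0.852, is the highest point, and the other points lie between -0.137 and 0.370.

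Ordered by CNT-2 minus control, the members ran Rac2, Rac1, Cybb, Ncf4, Ncf1 and Cyba. Rac1 and Cybb lay 0.36 and 0.30 above control and so were closer to each other than the yardstick of 0.19, as were Ncf4, Ncf1 and Cyba at 0.063, -0.085 and -0.13, except that Ncf4 and Cyba differed by slightly more. In CNT-1 the order was Rac1, Rac2, Cyba, Ncf4, Cybb and Ncf1, over a narrow range of 0.061 to -0.21. Against control, the median over the 6 members was 0.18 in CNT-2 and -0.082 in CNT-1, and CNT-2 exceeded CNT-1 by a median of 0.24. Over all genes these medians were 0.041, -0.043 and 0.15. In absolute size the median difference was 0.22 for the members against 0.37 for all genes in CNT-2, and 0.088 against 0.18 in CNT-1.

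How the columns are scaled decides the direction of several of these values. The 10 spike-in probes, which report RNA added to the labelling and should not depend on the cells, were 0.23 ± 0.10 above control in CNT-2 and at -0.046 ± 0.07 from control in CNT-1 (SD over probes). Subtracting the spike-in means moved the median of all genes by -0.23 for CNT-2 against control and by -0.27 for CNT-2 against CNT-1. Subtracting column 75th percentiles moved it by -0.44 and -0.38. For CNT-2 minus CNT-1, column medians moved it by -0.12 and quantile normalization by -0.15. Relative to control, Rac2 in CNT-2 was positive under all 4 of these scalings, from 0.20 with quantile normalization to 0.70 with column medians, and Cyba and Ncf1 were negative under all 4. Cybb and Rac1 turned to -0.14 and -0.075 with 75th percentiles and stayed positive under the other 3, whereas Ncf4 was negative under all 4. In CNT-1 Cybb, Cyba, Ncf1 and Ncf4 were negative and Rac1 positive under all 4, and Rac2 turned to -0.047 with 75th percentiles and -0.071 with quantile normalization. For CNT-2 minus CNT-1, Cybb and Rac2 were positive under all 4, at 0.04 to 0.30 and 0.27 to 0.66, and Cyba was negative. In that comparison Ncf1, Ncf4 and Rac1 turned to -0.261, -0.205 and -0.081 with 75th percentiles. With spike-in means Ncf1 and Ncf4 turned to -0.149 and -0.093, and Rac1 stayed positive.

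**Figure D2:**
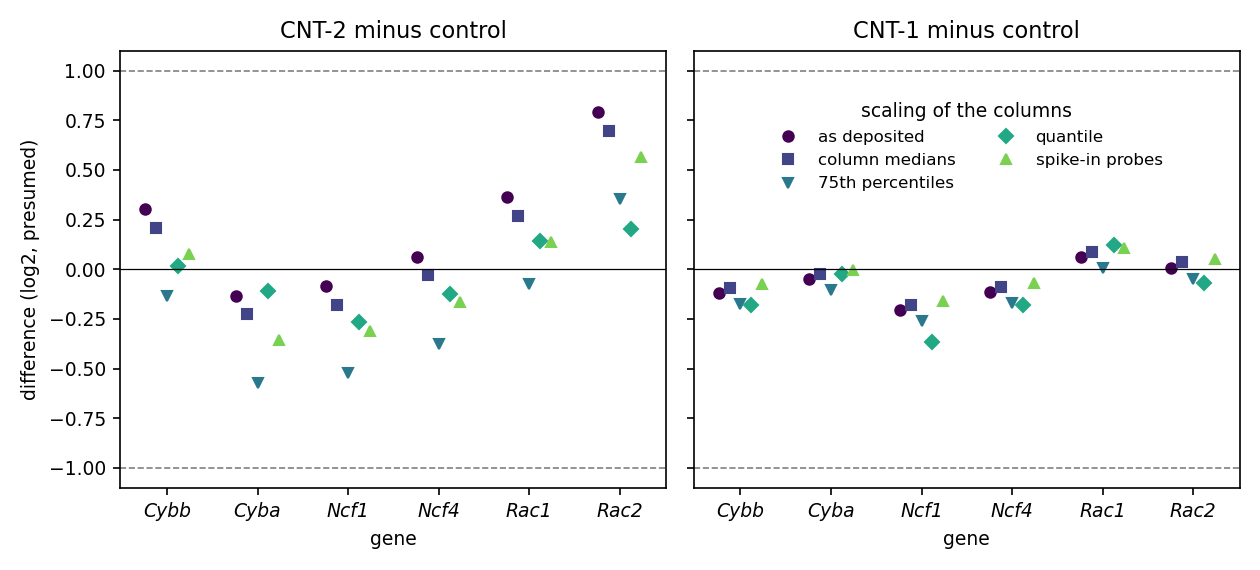
Difference from control (log2, presumed) of the 6 oxidase genes under 5 treatments of the columns, for CNT-2 on the left and CNT-1 on the right, with dashed lines at 1 and -1. No point reaches either dashed line, Rac2 stays above 0 in CNT-2 throughout, and Ncf4 in CNT-2 lies above 0 only as deposited.

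Values of control probes moved with the columns as well. The negative control probe read 0.053 in CNT-2, -0.111 in CNT-1 and 0.157 in control. A further set of quality probes, labelled DCP and not explained in the files, lay at 0.22 ± 0.08 (SD over 11 probes) for numbers 0 to 5 and at -0.18 ± 0.26 (SD over 7 probes) for numbers from 6 up in CNT-2 minus control. Their part in the oxidase values was not tested.

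The sequences before the start sites are shown for the membrane and organizer subunits. Their products work in 1 complex, and their mRNA differed from control by less than 2-fold. In CNT-2 as deposited, Cyba and Ncf1 lay below control but inside the yardstick. Both were negative under the 4 scalings too, down to -0.57 and -0.52 with 75th percentiles. The direction of Cybb in CNT-2 was not settled, as it turned to -0.14 with 75th percentiles. RefSeq promoters of build GRCr8 matched 3 of the 6 members, and the 250 bases before the annotated start are printed, 5′ to 3′ on the gene's strand, for Cybb (chrX:16065066-16065315, minus strand), Cyba (chr19:67404215-67404464, minus strand) and Ncf1 (chr12:28121635-28121884, plus strand). Capitals mark GAGGAA, the core letters bound by the macrophage factor PU.1, the CCAAT box letters CCAAT and the GC box letters GGGCGG, each searched on both strands.
Cybb: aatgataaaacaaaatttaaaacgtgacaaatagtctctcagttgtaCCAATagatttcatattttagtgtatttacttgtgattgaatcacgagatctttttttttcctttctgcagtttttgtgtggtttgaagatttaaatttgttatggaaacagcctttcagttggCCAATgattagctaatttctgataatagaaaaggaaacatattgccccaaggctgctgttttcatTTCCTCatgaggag
Cyba: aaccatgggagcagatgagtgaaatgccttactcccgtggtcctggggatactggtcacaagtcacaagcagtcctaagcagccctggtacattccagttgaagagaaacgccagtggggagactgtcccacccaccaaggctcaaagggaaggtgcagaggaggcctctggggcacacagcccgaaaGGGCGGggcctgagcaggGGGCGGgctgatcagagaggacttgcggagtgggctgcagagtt
Ncf1: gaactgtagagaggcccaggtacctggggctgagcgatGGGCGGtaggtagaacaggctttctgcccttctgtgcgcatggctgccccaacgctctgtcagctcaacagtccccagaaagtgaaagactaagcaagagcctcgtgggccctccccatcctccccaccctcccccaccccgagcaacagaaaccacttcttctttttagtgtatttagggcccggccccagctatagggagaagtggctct
The Cybb stretch held the core letters of PU.1 in reverse complement at -14 to -9 and CCAAT at -203 to -199 and -79 to -75, counted back from the start site with -1 as the last base before it. The Cyba stretch held GGGCGG at -62 to -57 and -44 to -39, and the Ncf1 stretch held it at -212 to -207. No match overlapped another. Over 33469 RefSeq promoters of the same length, 23.3% held GAGGAA, 34.0% CCAAT and 30.5% GGGCGG on either strand, so each is common. A match of these letters is a description and not a binding site. Spi1, the gene of PU.1, read 0.557 in CNT-2, 0.210 in CNT-1 and 0.099 in control. Its difference from control was 0.46 in CNT-2, turning to -0.0025 with quantile normalization, and 0.11 in CNT-1.

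One gene whose product works beside the oxidase differed more than the subunits did. Hvcn1 encodes the voltage-gated proton channel that lets protons leave the cytosol and so balances the charge moved by the oxidase. Its 2 probes read 2.716 and 2.424 in CNT-2, 0.793 and 0.639 in CNT-1, and 0.005 and 0.006 in control. Both probes gave the same order, with CNT-2 highest and control lowest. Hvcn1 differed from control by 2.56 ± 0.21 in CNT-2 and by 0.71 ± 0.11 in CNT-1 (SD over 2 probes). In CNT-2 it stayed past 2-fold under the 4 scalings, at 1.37 to 2.47, and 1.53% of all genes lay higher. The other genes measured in this list of partners, chosen by function and named here after their values were seen, were the Rap GTPases Rap1a at -0.12 in CNT-2 and -0.088 in CNT-1, and Rap1b at 0.69 and 0.23. The 2 probes of Rap1b disagreed in CNT-2 minus control, with 0.210 and 1.176. Cybc1, the chaperone of the catalytic core, was not analysed here.

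Oxidases of other tissues belong to the same enzyme family. Of 8 genes measured for these oxidases and their partners, 3 were at least 2-fold higher in CNT-2 than in control (1 with 75th percentiles) and 0 were 2-fold lower, where 10.1% of all genes were 2-fold higher. Duox2, a dual oxidase known from thyroid and mucosal epithelium, read 3.779 in CNT-2, 0.462 in CNT-1 and 0.155 in control, a difference of 3.62 in CNT-2 and 0.31 in CNT-1. In the control column its 1 probe lay within 0.02 of the negative control probe, at 0.157. Duox2 was therefore absent from the alternative that left such probes out. Duoxa1, a maturation factor of dual oxidases, read 1.338 in CNT-2, -0.640 in CNT-1 and -0.039 in control, so the nanotube columns lay on opposite sides of control. Nox1, an oxidase known from colon epithelium, read 1.173 in CNT-2, 0.069 in CNT-1 and -0.149 in control. Against control in CNT-2, Duoxa1 lay at 1.38, or 0.94 to 1.28 under the 4 scalings, and Nox1 at 1.32, or 0.88 to 1.46. Nox4, which makes mainly hydrogen peroxide without the cytosolic subunits, read -0.129 in CNT-2, -0.402 in CNT-1 and 0.242 in control and so lay below control in both nanotube columns. In CNT-1 none of the 8 was past 2-fold as deposited, with a list median of 0.0035. The list median in CNT-2 was 0.44, against 0.041 for all genes.

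**Figure D3:**
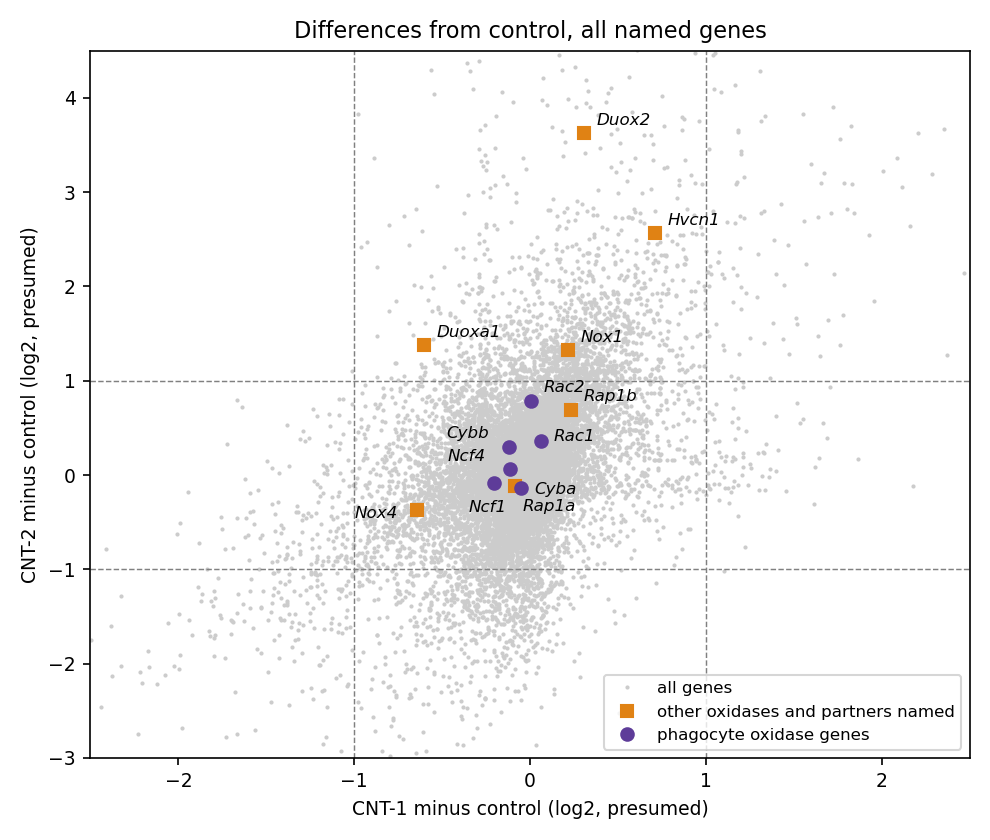
Each named gene by its difference from control in CNT-1 (horizontal axis) and in CNT-2 (vertical axis), both log2 as presumed, with the 6 phagocyte oxidase genes as circles, other oxidases and partners as squares and dashed lines at 1 and -1. The 6 circles lie inside the central box, Hvcn1 and Duox2 lie well above it at 2.56 and 3.62 on the vertical axis, and 95 genes fall outside the plotted range.

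Genes listed for switching Rac on or holding it inactive showed no common direction. Of 14 exchange factors, dissociation inhibitors and GTPase-activating proteins measured, 1 was at least 2-fold higher in CNT-2 than in control and 0 lower, where 10.1% of all genes were 2-fold higher and 6.56% lower, and 6 lay above 0 with a median of -0.17. The lower side depended on the scaling, as 1 was 2-fold lower and 0 higher with column medians, 4 and 0 with 75th percentiles (median -0.61), 2 and 0 with spike-in means, and neither side had any with quantile normalization. The 1 higher as deposited was Arhgdig, a gene of the dissociation inhibitor family, at 1.08, or 0.64 to 0.98 under the 4 scalings. Whether its product acts on Rac in these cells was not tested. Arhgdib, the related inhibitor of blood cells, named here after its values were seen, lay just inside the mark at -0.98 as deposited, or -1.42 to -0.50 under the 4 scalings. In CNT-1 none was past 2-fold, and the median was -0.067.

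Kinases and lipid enzymes that activate the oxidase differed among themselves in direction. Of 16 measured, 1 was at least 2-fold higher and 2 lower in CNT-2, where 10.1% of all genes were 2-fold higher and 6.56% lower. With 75th percentiles, and likewise with spike-in means, 0 were higher and 4 lower, and with quantile normalization 0 and 1. The genes that joined the lower side, named after their values were seen, were Pak1, a kinase activated by Rac, at -1.25 and -1.04 under those 2 scalings in turn, and Pla2g4a, a phospholipase that releases arachidonate, at -1.41 and -1.19. Prkcd, a protein kinase C that phosphorylates p47phox, read 1.120 in CNT-2, 0.318 in CNT-1 and 0.016 in control. Its difference of 1.10 in CNT-2 was 0.48 with quantile normalization. Pik3cd, the catalytic subunit of a leukocyte phosphoinositide kinase, had 2 probes at -2.043 and -2.143 in CNT-2, -0.844 and -0.685 in CNT-1, and -0.012 and 0.074 in control. Control was highest and CNT-2 lowest at both probes, and the difference of -2.12 ± 0.13 in CNT-2 (SD over 2 probes) stayed past 2-fold under the 4 scalings. Mapk14, a stress kinase that primes p47phox, differed from control by -1.42 ± 0.46 in CNT-2 (SD over 3 probes), or by -0.70 with quantile normalization, and by -0.36 ± 0.10 in CNT-1. In CNT-1 the list had 0 genes past 2-fold and a median of -0.11.

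Transcription factors known to act on oxidase subunit genes had 0 of 9 members past 2-fold in either nanotube column, beside 16.7% of all genes in CNT-2 and 3.30% in CNT-1, and 0 also under the 4 scalings. The list medians were -0.025 in CNT-2 and 0.037 in CNT-1, the second turning to -0.018 with 75th percentiles and -0.028 with quantile normalization. Enzymes that supply NADPH, the electron donor, had 1 of 9 past 2-fold in CNT-2, on the higher side, beside 10.1% of all genes. This was Me1, the cytosolic malic enzyme, with probes at 1.210 and 1.616 in CNT-2, -0.088 and -0.089 in CNT-1, and -0.012 and 0.013 in control, a difference of 1.41 ± 0.27 in CNT-2 (SD over 2 probes), or 0.74 to 1.32 under the 4 scalings. Idh2, the mitochondrial isocitrate dehydrogenase, named after its values were seen, lay at -0.98 in CNT-2 as deposited. It was past 2-fold lower with column medians (-1.07), spike-in means (-1.20) and 75th percentiles (-1.41). With quantile normalization it was not, as the list then had 0 genes past 2-fold on either side in CNT-2. With 75th percentiles the list had 0 higher and 2 lower, the other being Mthfd1, an enzyme of folate metabolism, at -1.06. The list median was -0.21 in CNT-2 and -0.063 in CNT-1.

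Superoxide is removed by dismutases and the resulting peroxide by catalase, among others. Sod2, the mitochondrial dismutase, read 1.753 in CNT-2, 0.643 in CNT-1 and 0.033 in control. Against control it lay at 1.72 in CNT-2, or 0.74 to 1.63 under the 4 scalings, and at 0.61 in CNT-1. Sod3, a further dismutase named after its values were seen, lay just inside the mark. Its difference from control was 0.97 in CNT-2, or 0.75 with spike-in means, and 0.061 in CNT-1. Sod1, the cytosolic dismutase, and Cat, catalase, lay at 0.046 and 0.054 above control in CNT-2, and at -0.076 and -0.011 from it in CNT-1, and each of these 4 values changed sign under at least 1 scaling.

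**Figure D4:**
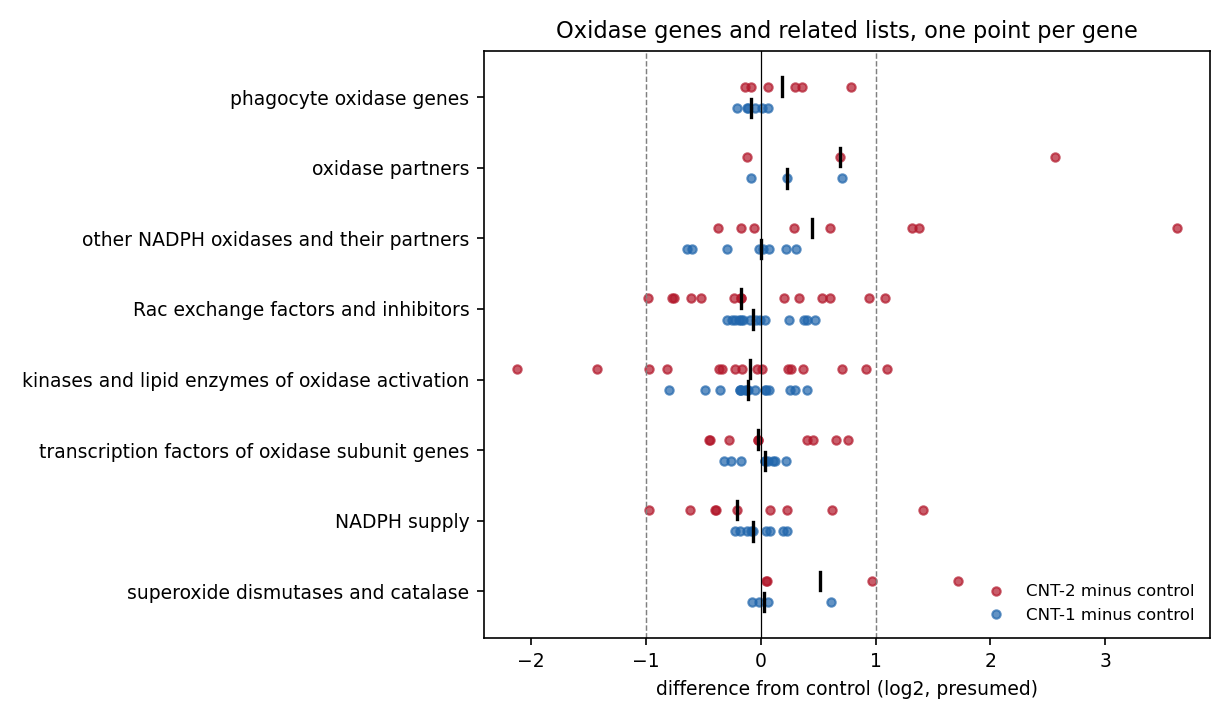
Difference from control (log2, presumed) of each gene in 8 lists, with CNT-2 above CNT-1 in each row, 1 point per gene, black bars at the list medians and dashed lines at 1 and -1. The phagocyte oxidase genes have no point past a dashed line, whereas 3 of 8 other oxidases and partners lie past 1 in CNT-2 (1 of 8 with 75th percentiles).

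Over the 7 lists around the oxidase, 10 of 63 measured genes were at least 2-fold away from control in CNT-2 (8 higher and 2 lower), and 0 in CNT-1, or 2 with quantile normalization. The balance in CNT-2 turned with the scaling, to 7 higher and 5 lower with column medians, 3 and 10 with 75th percentiles, 6 and 7 with spike-in means, and 3 and 1 with quantile normalization. That is 15.9% in CNT-2 beside 16.7% of all genes, and 0 of 63 in CNT-1 beside 3.30%. Between the nanotubes directly, at the same dose and time and without the shared control, 8 of the 63 differed by 2-fold (6 higher and 2 lower in CNT-2 than in CNT-1), or 12.7% beside 14.0% of all genes. That split became 4 higher and 8 lower with 75th percentiles, 4 and 5 with spike-in means, 4 and 2 with column medians, and 2 and 0 with quantile normalization. As deposited, the shares for these lists were near the background. None of the 6 oxidase genes differed by 2-fold in that comparison, where 9.32% of all genes were 2-fold higher and 4.65% lower. As no group had a second column, no interval for the difference can be given, and these values do not show that CNT-2 and CNT-1 act alike on the oxidase.

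Genes with a pattern close to that of Cybb were found by distance in the plane of the differences from control in CNT-1 and CNT-2. The nearest were Tekt4 at a distance of 0.0047, Ptprr at 0.012 and Tspan33 at 0.017, in log2 units over 3 columns. Since 285 genes lay within 0.1 of Cybb, such closeness is common.

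Markers of cell types gave further context in the same columns. Of 13 alveolar macrophage markers measured, 2 were at least 2-fold higher and 2 lower in CNT-2 than in control, where 10.1% of all genes were higher and 6.56% lower, with a median of 0.38, or -0.061 with 75th percentiles. Cd14, the endotoxin co-receptor, lay at 3.37 ± 0.16 and Mrc1, the mannose receptor, at -2.24 ± 0.13 (SD over 2 probes each). Fabp4, a fatty acid binding protein, lay at 3.96, Csf1r, the receptor for a macrophage growth factor, at -1.25 ± 0.60 (SD over 2 probes), and the lysosomal marker Cd68 at 0.63. Neutrophil and granulocyte markers, whose cells also carry the oxidase, had 0 of 7 past 2-fold in CNT-2, beside 16.7% of all genes, with a median of 0.023 and a range of -0.76 to 0.92, and Mpo, the myeloperoxidase gene, was at -0.68. That 0 rests on means over probes that disagreed for S100a8 and Camp, named after their values were seen. In CNT-2 minus control, S100a8 had probes at 1.43, 1.46 and -0.14, and Camp at 1.47 and 0.24. With 75th percentiles 2 of the 7 were lower and the median was -0.41, and with quantile normalization 1 was higher. In CNT-1 this list had 1 of 7 past 2-fold, the protease Elane at -1.20, beside 3.30% of all genes, and a median of -0.13. Lymphocyte markers had 2 of 8 lower in CNT-2, Cd79a at -1.37 and Nkg7 at -1.67, and 1 of 8 lower in CNT-1, Cd2 at -1.42, where 6.56% of all genes were lower in CNT-2 and 2.15% in CNT-1. In CNT-2 4 of the 8 lay above control, with a list median of -0.24, while in CNT-1 0 of 8 did, or 1 with quantile normalization, with a median of -0.36. Of 13 epithelial, endothelial and fibroblast markers, 2 were higher in CNT-2, Dcn at 2.56 and Krt18 at 1.34 ± 0.52, and 1 lower, Vwf at -1.73 ± 1.66 (SD over 2 probes each), while Epcam at 1.61 was the 1 past 2-fold in CNT-1, where 1.16% of all genes were 2-fold higher. As all cells were of the line NR8383, these marker values are not read as shares of other cell types.

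Over all 15924 genes, 1616 were at least 2-fold higher and 1045 lower in CNT-2 than in control, so that 60.7% of those past 2-fold were higher, or 26.7% with 75th percentiles and 42.1% with spike-in means. In CNT-1 184 were higher and 342 lower, a share of 35.0% higher, or 46.0% with quantile normalization and 55.6% without subtracting the control. Between CNT-2 and CNT-1, 1484 were higher and 741 lower in CNT-2, a share of 66.7%, or 55.7% with column medians, 32.9% with 75th percentiles, 52.1% with quantile normalization and 42.4% with spike-in means.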

How the data were processed

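NR8383 total RNA was made into Cy3 cRNA for 1-colour Agilent arrays, per the labels' protocols. Per the submitters' processing notes, scan images went through Agilent Feature Extraction 10.7.3.1. The values are differences presumed to be log2, as deposited by the authors, to 3 decimals. The base was read from the range of -5.71 to 8.82, which is too wide for log10, and a natural log remains possible. The sources used here do not describe normalization between arrays or the baseline of the centring. Larger values were read as more RNA.

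The platform annotation gave 1 symbol to 20932 of 41103 probes, several to 0 and none to 20171. RefSeq accessions (GRCr8) named 17415 probes, 3113 kept a current symbol, 396 older symbols were updated and 8 stayed unmatched. Differences between columns were taken per probe and averaged per gene. A gene was counted when it was at least 1 log2 unit away. With 1 column per group no test was made, and the number of arrays limits the precision. The gene summary was tested on simulated data. Alternatives concerned column scaling, probe summary, probe naming, log base, control subtraction, threshold and leaving out probes whose control value lay near that of the negative control. Python 3.11.15 and pandas 2.3.3 were used.

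The members and lists were chosen with earlier results of these data known. The text names all 6 members. From each list it names genes at least 1 log2 unit from control in CNT-2 or CNT-1, at most 8 per list, plus Cybc1, Hvcn1, Nox4, Spi1, Sod1, Sod2, Cat, Cd68 and Mpo, and the 3 genes nearest to Cybb. Exceptions are stated where they occur. A further list and a few further genes are not reported here.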

Additional observations from a re-analysis of the deposited data

How the results depend on the processing

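Of 566 values recomputed under alternatives, 438 stayed close to the reported ones and 128 moved by more. Close meant within the median probe SD or, for counts, within 1.5 times. Members with 1 probe could not move with the probe summary, so some closeness was fixed in advance. No difference or median among these values was past 2-fold as deposited, so a change of sign from past 2-fold could not occur. Smaller differences did change sign, such as Ncf4 in CNT-2 minus control, under 4 of 10 alternatives. No paired analysis was possible because each group has 1 column and all labels carry the same replicate number, and for the same reason leaving out a replicate could not be run. The median of the 6 oxidase genes moved in CNT-2 against control to -0.26 with 75th percentiles, -0.045 with quantile normalization and -0.043 with spike-in means, and in CNT-2 against CNT-1 to -0.14 with 75th percentiles and -0.031 with spike-in means. Rac2 was the 1 member past the threshold in CNT-2, against control and against CNT-1, when values were read as natural logs or when the threshold was 1.5-fold (1 gene in each case), and no member passed under the other alternatives.

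Counts of all genes moved as follows, higher then lower. With 75th percentiles they were 838 and 2297 in CNT-2 against control and 768 and 1563 in CNT-2 against CNT-1. Spike-in means gave 915 and 1245 for CNT-2 minus CNT-1. Quantile normalization gave 731 and 663 in CNT-2 against control, 603 and 709 in CNT-1 against control and 401 and 368 in CNT-2 against CNT-1. On a natural log scale the counts were 2660 and 1813, 435 and 752, and 2594 and 1328 in that order of comparisons. At 1.5-fold they were 3220 and 2193, 614 and 1024, and 3264 and 1695. Without subtracting the control, 197 genes were lower in CNT-1.

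For the 63 genes of the lists around the oxidase, counts past the threshold either way became 4, 2 and 2 with quantile normalization, 21, 2 and 16 on a natural log scale and 28, 5 and 22 at 1.5-fold, for CNT-2 against control, CNT-1 against control and CNT-2 against CNT-1. Lower thresholds and a larger log unit raise counts by construction, and for the scalings the cause was not tested. Signal over background is not in the deposited values, so how far dim probes limit these differences could not be seen directly. Probes within 0.02 of the negative control in the control column were left out as an alternative, and no oxidase member had one. Genes past 2-fold, higher then lower, were then 1506 and 1061 in CNT-2 and 154 and 366 in CNT-1 against control. For CNT-2 against CNT-1 they were 1368 and 723.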
